A study of Mus musculus with 48 samples.

Results

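The step between the samples labelled 8 PM and 12 AM was examined in the inguinal, subcutaneous white adipose tissue (sWAT) of twice-a-night (TAN) fed mice, with 4 libraries at each time. The samples were chosen by diet and time label alone, and these 8 libraries are part of a series of 48, in which TAN and ad-lib mice were sampled at 6 times. All mice were males of 8 months, C57BL/6 by the labels and C57BL/6J in the study's methods, and TAN mice had food between 9 and 11 p.m. and between 5 and 7 a.m. for 6 months, while ad-lib mice had food at all times. Ad-lib mice at the same 2 labels, again 4 and 4, served as the comparison. The lights went off at 8 p.m., so that by the labels the step runs from the last hour of the daily fast into the hour after the first meal.

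A different reading of the times exists and could not be settled. In the expression tables that accompany the study, 8 of 8 of these libraries, and 48 of 48 of the series, carry the same animal name but a time 12 h away from the label of the deposited counts, so that the same step would run from 8 AM to 12 PM, in the hours after the second meal. The labels of the deposited counts are used below, and every statement on a meal holds only under them. The groups are 4 h apart under either reading. The material is also described in different ways, as a stromal vascular fraction in the series and as whole sWAT in the study.

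White adipose tissue stores energy as triglyceride. After a meal, insulin and sugar turn on the synthesis of fatty acids through the transcription factors SREBP1 and ChREBP, and SREBP2 drives cholesterol synthesis when sterols in the membrane are low. The circadian clock is a loop in which ARNTL and CLOCK activate the Per, Cry and Nr1d1 genes, whose products then switch the activators off. Feeding time is known to shift this loop in peripheral tissues, and body temperature, which follows activity and meals, sets the level of heat shock chaperones and of the cold-inducible proteins CIRBP and RBM3.

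The libraries of the step differed in depth by little and in tissue makeup by much. Total counts ran from 18242523 to 25440243 (median 21690042), and mitochondrially encoded genes took 4.40% to 11.9% of them. None of the 10 adipocyte markers was at 0 in any of the 8 libraries, and their mean level, as log2 CPM (counts scaled to a common library size), was 9.67, 9.14, 11.6 and 12.3 in 8 PM libraries 1 to 4 and 11.3, 11.9, 12.2 and 11.8 in 12 AM libraries 1 to 4. The 10 lymphocyte markers stood at 7.53, 7.63, 6.13 and 1.41 at 8 PM and at 6.95, -0.10, 4.83 and 0.13 at 12 AM, and markers of lymph node stroma ran from 0.01 to 4.34 and from -1.46 to 3.49 in the same order of groups. On the same scale 10 skeletal muscle markers were at 3.58 in 8 PM library 3 and 4.53 in 12 AM library 3, and at 1.66 or less in the other libraries. The lymphocyte and muscle levels overlapped between the times. The 12 AM minus 8 PM difference was -2.73 for lymphocytes (exact permutation test, two-sided p = 0.2, n = 4 and 4) and -0.13 for muscle (exact permutation p = 0.857). With so few libraries this does not show that the makeup was alike. The adipocyte level averaged 10.7 at 8 PM and 11.8 at 12 AM, a difference not tested as a level, and the median log2 fold change of its 10 markers was 0.61. 8 PM libraries 1 and 2 stand apart, with the most lymphocyte and the least adipocyte RNA of the 8. The inguinal depot holds a lymph node, and in bulk tissue fewer cells of a type and less RNA per cell cannot be told apart.

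**Figure D1:**
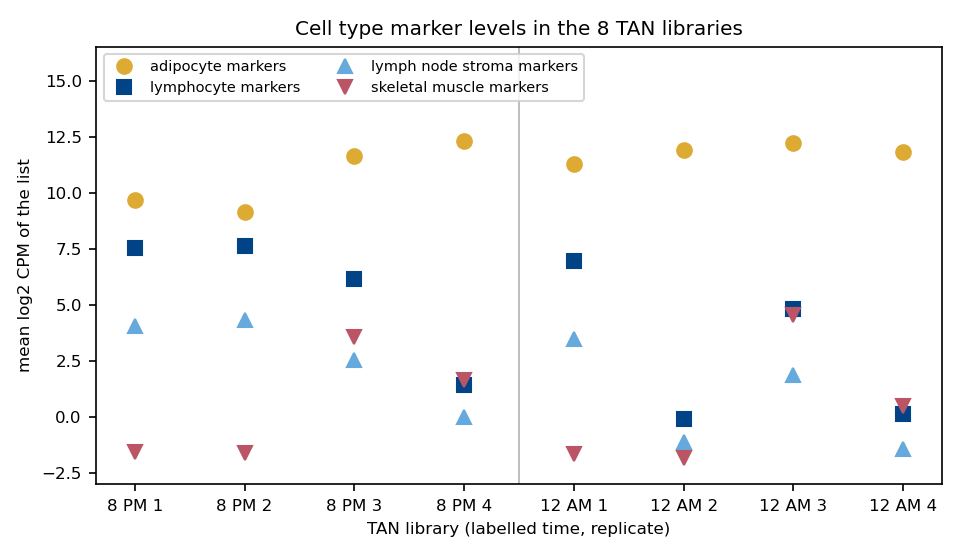
Mean log2 CPM of the listed cell type markers (vertical axis) in each of the 8 TAN libraries, by time label. Lymphocyte markers span -0.10 to 7.63 without separating the times, and 8 PM libraries 1 and 2 hold the lowest adipocyte levels, 9.67 and 9.14.

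The same 2 libraries, and some others, also lacked genes that are commonly counted. Of 12836 genes with a median of at least 50 counts over the other 40 libraries, 451, 378, 60 and 122 were at 0 in 8 PM libraries 1 to 4 and 19, 141, 13 and 222 at 12 AM, against 0 to 1 in the ad-lib libraries at both times. The ad-lib libraries are among the 40 that set the choice of these genes. Over all 40, the number at 0 ran from 0 to 380 (median 0), highest in library 1 of TAN mice at 4 PM. Of the 1297 genes called higher below, 335 (25.8%) were at 0 in at least 1 of the 8 PM libraries, as were 94 (11.5%) of the 816 called lower. A 0 at 8 PM itself favours a call of higher, and the share over all tested genes was not counted. How far tissue makeup and missing genes shape the changes described here was not tested beyond the values given beside them.

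At 12 AM, 1297 genes were higher and 816 lower than at 8 PM in TAN mice, which is 6.49% and 4.08% of the 19977 genes tested (edgeR's quasi-likelihood test, Benjamini-Hochberg adjusted p under 0.05). With a change above 2-fold as well, the counts were 829 higher (4.15%) and 602 lower (3.01%). The median log2 fold change over all tested genes was 0.03. The groups did not overlap for 1019 genes (5.1% of those tested) and for 673 of the 2113 called genes. In a fit to the 11624 genes with at least 10 counts in all 8 libraries, the balance of directions turned, with 911 higher and 1243 lower, 664 of the latter shared with the 816, and a median of -0.055 over all genes. The counts also moved when libraries were left out, which makes a group smaller and lowers the power of the test. With 1 library left out, the higher count ran from 337, without 8 PM library 2, to 3465, without 8 PM library 4. It was 386 without 12 AM library 4. Whether tissue makeup or group size shaped these counts was not tested. Without 8 PM libraries 1 and 2, 94 genes were higher and 31 lower, and a fit to these 8 libraries alone called 0 genes by edgeR, with 836 and 682 genes under 0.05 before adjustment of p. The counts by the other tools run on the 48 libraries were 1748 and 1619 with DESeq2 and 2239 and 592 with limma voom.

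Clock genes changed in both directions. Of 15 core clock genes, 4 were higher at 12 AM, Arntl, Clock and Npas2 among them, 1 was lower (Nr1d1) and 10 did not pass the test, with a median log2 fold change of 0.42, against 6.49% of all genes higher and 4.08% lower. Arntl, which encodes the activator BMAL1, was at 5.77, 7.14, 2.94 and 1.46 CPM in 8 PM libraries 1 to 4 and at 14.7, 29.5, 16.9 and 21.9 CPM in 12 AM libraries 1 to 4, the order used for all values below. The groups did not overlap, and Arntl rose by 2.25 ± 0.38 on the log2 scale (SE from the fit to all 48 libraries, n = 4 and 4, edgeR adjusted p = 0.000303). Clock, the partner of BMAL1, went from 30.3, 22.7, 25.6 and 40.6 CPM to 81.5, 138, 84.8 and 116 CPM, a log2 rise of 1.82 ± 0.28 (edgeR adjusted p = 0.000131). Every 12 AM value of Clock was above every 8 PM value by a wide gap. Npas2, a paralogue of Clock, was at 0 counts in all 8 PM libraries and was counted in each 12 AM library, which makes it at least 1.996-fold higher against a floor of 3 counts a library.

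On the repressor side, Nr1d1, which encodes the repressor REV-ERB alpha, was at 17.0, 13.1, 44.5 and 54.3 CPM at 8 PM and at 4.05, 3.14, 10.4 and 9.27 CPM at 12 AM, a log2 change of -2.27 ± 0.55 (edgeR adjusted p = 0.00945). No 12 AM library reached the lowest 8 PM library. The Per and Cry genes, the classical repressors, did not pass the test: log2 changes were -0.90 for Per1, 0.33 for Per2, 0.42 for Per3, 0.43 for Cry1 and 1.04 for Cry2 (edgeR adjusted p = 0.0546). Among the other core genes Ciart, a further repressor, had the largest change, -2.41 ± 0.93 (edgeR adjusted p = 0.0816), and its groups overlapped only through 8 PM library 2.

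Of 8 clock output genes, Nfil3 and Nampt were higher, Dbp was lower and 5 did not pass. Of all genes, 6.49% were higher and 4.08% lower. Dbp, an activator at D-box elements, went from 60.6, 45.6, 145 and 259 CPM to 26.7, 32.8, 47.8 and 24.6 CPM (log2 -1.95 ± 0.51, edgeR adjusted p = 0.0148), with 1 value of 12 AM just above the lowest of 8 PM. Nfil3, a repressor at the same elements, moved the other way, from 2.43, 7.38, 9.09 and 12.0 CPM to 20.0, 30.3, 26.8 and 25.4 CPM (log2 1.73 ± 0.43, edgeR adjusted p = 0.0107). Nampt, the rate-limiting enzyme of NAD+ salvage, rose by 1.07 ± 0.31 (edgeR adjusted p = 0.0263). Tef and Hlf, paralogues of Dbp, changed by -0.20 and 0.03, and neither passed. Without 8 PM libraries 1 and 2, the calls that held among these genes were those of Arntl, Clock, Nr1d1 and Dbp.

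Over the day by the labels, mean Arntl in TAN mice was 46.0 CPM at 8 AM, 4.17 at 4 PM, 4.33 at 8 PM and 20.7 at 12 AM (n = 4 each), so that the step caught its rise from the trough. Mean Dbp was highest at 4 PM, at 153.9 CPM, and Nr1d1 at the same label, at 137.7 CPM, with both lower at 8 PM and lower again at 12 AM. In night-active mice Arntl is known to be high around the end of the night, and Dbp and Nr1d1 in the light phase. Under the reading of the study's tables, the Arntl maximum would lie at 8 PM and those of Dbp and Nr1d1 at 4 AM. Clock was low in TAN mice at 8 PM only: its mean there was 29.8 CPM, and it was 84.1 to 129.9 CPM at the other 5 times and 70.5 to 147.6 CPM over the 6 times in ad-lib mice. No test of this single low point against the other times was made.

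**Figure D2:**
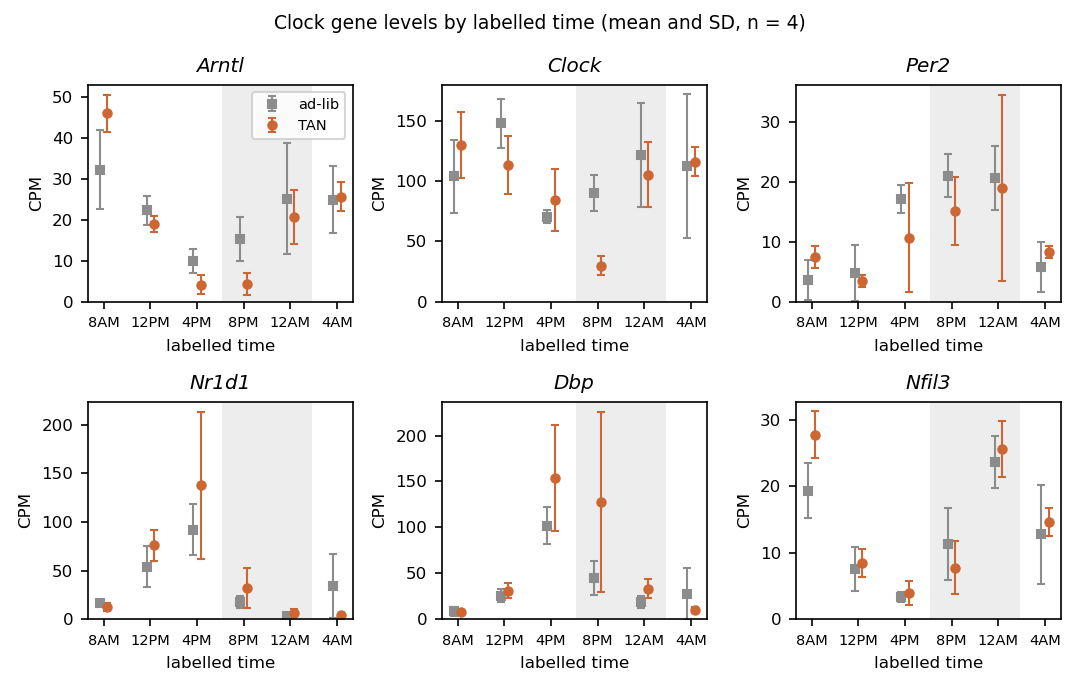
Mean CPM with SD (vertical axis, from 0) of 6 clock genes over the 6 time labels (horizontal axis), TAN and ad-lib mice, 4 libraries a point, with 8 PM and 12 AM shaded. In the shaded step of TAN mice Arntl, Clock and Nfil3 rose, Nr1d1 and Dbp fell, and Per2 did not pass the test.

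REV-ERB alpha and the ROR proteins bind the letters TAGGTCA, and promoters of the clock genes were searched for them on both strands, from 250 bases before to 50 bases after the start of the gene (RefSeq, GRCm38.p6). The letters stood in 2 of 24 windows of clock genes (8.33%), those of Arntl and Nfil3, and in 2.61% of all 32851 windows. These promoters are shown because both genes rose at the step in which Nr1d1 fell. The Arntl window is chr7:113207261-113207560 on the plus strand, with the match 31 bases after the start. The Nfil3 window is chr13:52980990-52981289 on the minus strand, with the match on the opposite strand, where it reads TGACCTA, 12 bases before the start. Capitals mark the match, and each sequence runs 5′ to 3′ along its gene.
Arntl: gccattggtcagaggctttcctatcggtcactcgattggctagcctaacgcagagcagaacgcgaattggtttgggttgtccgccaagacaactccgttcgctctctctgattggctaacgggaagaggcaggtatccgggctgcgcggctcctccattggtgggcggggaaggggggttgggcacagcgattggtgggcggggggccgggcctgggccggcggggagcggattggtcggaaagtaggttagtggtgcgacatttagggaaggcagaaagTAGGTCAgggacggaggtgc
Nfil3: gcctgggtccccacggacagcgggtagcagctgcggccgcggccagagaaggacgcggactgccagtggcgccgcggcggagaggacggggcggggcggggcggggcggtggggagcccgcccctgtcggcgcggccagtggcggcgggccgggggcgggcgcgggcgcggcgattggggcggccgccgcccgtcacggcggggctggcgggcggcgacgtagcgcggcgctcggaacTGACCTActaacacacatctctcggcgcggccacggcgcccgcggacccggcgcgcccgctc

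The other clock elements were searched in the same way. The E-box CACGTG, bound by CLOCK and BMAL1, was in 6 of 24 windows (25%; 7.15% of all windows), from Bhlhe41, Ciart, Cry1, Per1 and Tef, none of which passed the test. The D-box TTATGTAA was in 1 window, that of Per3 (4.17%; 0.938% of all). A match is a description of the letters and does not show a bound site.

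Part of the heat shock chaperones rose at 12 AM. Of 20 genes of the list, 9 were higher, 0 lower and 11 did not pass, with a median log2 fold change of 0.62 against 0.03 over all genes and 6.49% of all genes called higher. Hspa8, the constitutive HSC70 that folds new proteins, was at 2321, 2202, 1132 and 988 CPM at 8 PM and at 3156, 3505, 3260 and 3312 CPM at 12 AM (log2 0.99 ± 0.28, edgeR adjusted p = 0.0223). The 12 AM libraries lay close together while the 8 PM libraries fell into a higher pair, 1 and 2, and a lower pair, and the groups did not overlap. Hspa4l, a nucleotide exchange factor of HSP70, rose most, from 13.2, 9.79, 9.14 and 18.4 CPM to 47.1, 64.4, 43.8 and 108 CPM (log2 2.38 ± 0.30, edgeR adjusted p = 9.16e-06). Chordc1, a co-chaperone of HSP90, was nearly constant within each group, at 91.7, 92.7, 85.4 and 97.2 CPM and at 191, 223, 173 and 192 CPM (log2 1.09 ± 0.18, edgeR adjusted p = 0.00033). Hsp90aa1, the inducible HSP90, Hsph1, Dnaja1, Hspb1, Hspd1 and Hspa4 rose by 0.72 to 1.91. The count was again 9 without 8 PM libraries 1 and 2 (median 0.995) and 11 with the adipocyte marker level as a covariate. It was 5 without 12 AM library 4 and 6 without 12 AM library 2, and 0 by edgeR in the fit to the 8 libraries alone and in the libraries poor in lymphocyte RNA.

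The genes of both cold-inducible RNA-binding proteins fell in the fit to all libraries. Cirbp was at 120, 138, 102 and 83.8 CPM at 8 PM and at 40.4, 27.2, 43.8 and 30.9 CPM at 12 AM (log2 -1.64 ± 0.27, edgeR adjusted p = 0.000272). Rbm3 went from 749, 726, 599 and 299 CPM to 275, 253, 258 and 156 CPM (log2 -1.33 ± 0.29, edgeR adjusted p = 0.0049). All 12 AM libraries were below all 8 PM libraries for both. Without 8 PM libraries 1 and 2 the call of Cirbp held (log2 -1.39, edgeR adjusted p = 0.0268) and that of Rbm3 did not (log2 -0.93, edgeR adjusted p = 0.23), and over the 3 libraries poor in lymphocyte RNA the log2 changes were -1.52 and -0.55. Over the day the patterns of these genes differed: mean Cirbp in TAN mice was lowest at 12 AM, at 35.6 CPM, whereas mean Rbm3 stood at 593 ± 207 CPM (SD) at 8 PM and at 203 to 249 CPM at the other 5 labels. In ad-lib mice Cirbp changed by -0.92 and Rbm3 by -0.32 over the same step, and neither passed.

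**Figure D3:**
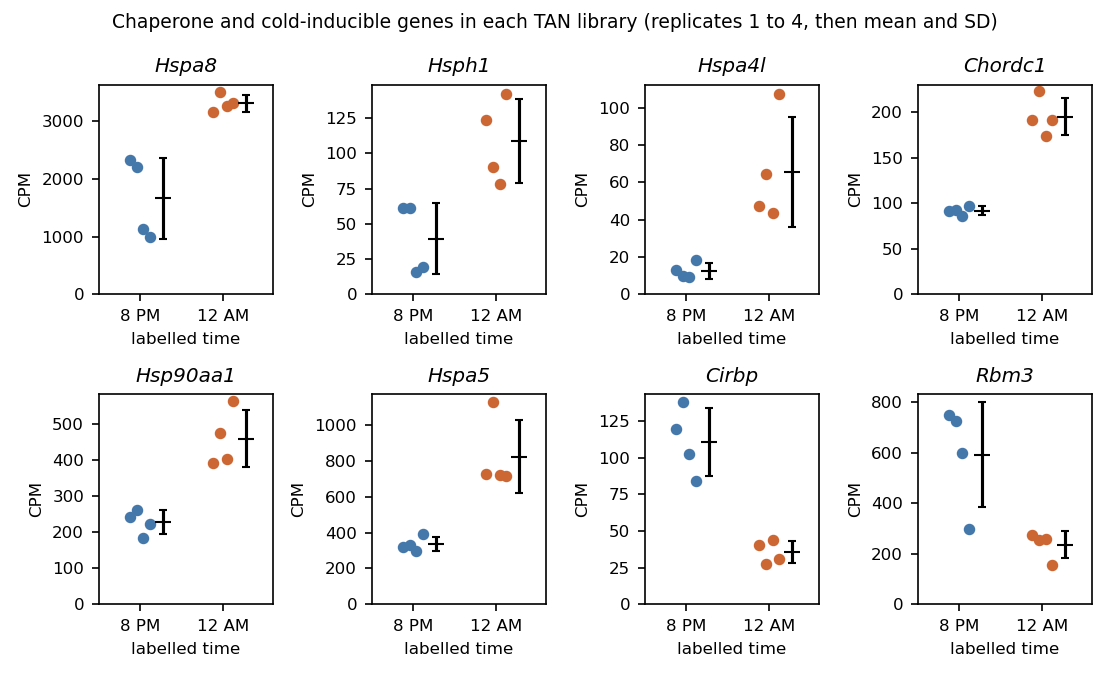
CPM (vertical axis, from 0) of heat shock, endoplasmic reticulum and cold-inducible genes in each of the 8 TAN libraries by time label, with the mean and SD of each group in black. Hspa4l, Chordc1 and Hspa5 are higher in all 12 AM libraries, and Cirbp and Rbm3 are lower in all of them.

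Heat shock factors bind inverted repeats of the letters GAA, and GAANNTTC was searched in the same promoter windows on both strands. It stood in 11 of 22 windows of the list (50%), from 10 of the 16 members with a window, against 7.86% of all windows. Of the members with a match, Chordc1, Dnaja1, Hspb1, Hspd1 and Hsph1 rose, and Bag3, Fkbp4, Hspa1a, Hspa1b and Hspe1 did not pass the test. Hspa8, Hspa4l and Hsp90aa1, which rose, were not among the members with a match. The promoters of Chordc1, with 2 matches, and Hsph1, with 1, are shown because both genes rose. The Chordc1 window is chr9:18292017-18292316 on the plus strand, and its matches lie 4 bases before and 7 bases after the start. The Hsph1 window is chr5:149636266-149636565 on the minus strand, with the match 21 bases after the start. Capitals mark the matches.
Chordc1: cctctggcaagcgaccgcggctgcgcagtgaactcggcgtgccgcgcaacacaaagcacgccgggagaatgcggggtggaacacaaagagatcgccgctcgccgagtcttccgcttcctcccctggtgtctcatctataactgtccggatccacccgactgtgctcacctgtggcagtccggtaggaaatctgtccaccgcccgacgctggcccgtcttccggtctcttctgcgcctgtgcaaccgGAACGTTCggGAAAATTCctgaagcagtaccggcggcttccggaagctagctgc
Hsph1: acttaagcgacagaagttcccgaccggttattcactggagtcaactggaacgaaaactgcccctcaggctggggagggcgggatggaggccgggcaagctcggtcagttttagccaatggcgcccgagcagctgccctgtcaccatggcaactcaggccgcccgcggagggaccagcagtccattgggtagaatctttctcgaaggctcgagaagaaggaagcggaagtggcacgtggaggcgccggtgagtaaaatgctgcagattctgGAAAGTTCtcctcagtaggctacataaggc

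Chaperones of the endoplasmic reticulum were among the genes that rose, within a list of 23 unfolded protein and integrated stress genes in which 7 were higher and 0 lower (median log2 0.40), against 6.49% and 4.08% of all genes. Hspa5, the main HSP70 of that compartment, was at 322, 329, 298 and 394 CPM at 8 PM and at 730, 1132, 722 and 714 CPM at 12 AM (log2 1.3 ± 0.18, edgeR adjusted p = 4.1e-05). Hsp90b1 and Calr, which also fold proteins there, rose by 1.08 and 0.67. Asns and Trib3, targets of the amino acid stress factor ATF4, rose by 1.80 and 1.12. Asns ran from 24.6 to 153 CPM at 8 PM and from 155 to 345 CPM at 12 AM, and the groups of Trib3 overlapped. Hspa5, Hsp90b1 and Calr were the 3 members that passed without 8 PM libraries 1 and 2.

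Genes of fatty acid synthesis had the highest median of the lists described here. Of 12, 10 were higher and 0 lower, with a median log2 fold change of 1.86, against 0.67 over the same step in ad-lib mice and 6.49% of all genes called higher. Acly, which makes cytosolic acetyl-CoA from citrate, was at 230, 163, 451 and 876 CPM at 8 PM and at 1577, 2702, 3013 and 4489 CPM at 12 AM (log2 2.78 ± 0.55, edgeR adjusted p = 0.00186). Elovl6, which lengthens palmitate, went from 75.9, 32.8, 139 and 293 CPM to 398, 1234, 791 and 1703 CPM (log2 2.93 ± 0.66, edgeR adjusted p = 0.00593). Scd2, a desaturase that makes monounsaturated fat, went from 137, 143, 198 and 280 CPM to 669, 1815, 903 and 1459 CPM (log2 2.67 ± 0.38, edgeR adjusted p = 4.53e-05). The groups of these genes did not overlap. Acaca, the acetyl-CoA carboxylase, Acss2, Me1 and Aacs rose by 1.67 to 2.31. Fasn, the synthase itself, was at 1174, 726, 1515 and 2911 CPM and at 2576, 2860, 3990 and 5615 CPM and did not pass (log2 1.25 ± 0.54, edgeR adjusted p = 0.116). Scd1, by far the most abundant member, ran from 1888 to 34668 CPM at 8 PM alone and only just passed (log2 1.61 ± 0.54, edgeR adjusted p = 0.0466).

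The adipocyte marker level moved with these genes, since the 8 PM libraries with the lowest marker level, 1 and 2, were also the lowest in Acly, Elovl6 and Scd1. With that level as a covariate, 8 of 12 members were higher and the median was 1.24. Without 8 PM libraries 1 and 2, the median was 1.26 and 1 member, Scd2, passed. Over the 3 libraries poor in lymphocyte RNA (8 PM library 4 and 12 AM libraries 2 and 4), the median was 1.23 with 0 calls by edgeR.

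Most genes of cholesterol synthesis and uptake also rose. Of 24 genes, 14 were higher and 0 lower, against 6.49% and 4.08% of all genes (median log2 1.3, or 1.19 with members at the floor set to their bound, and 0.48 in ad-lib mice). The called genes lie along the whole pathway from Hmgcs1, which makes HMG-CoA, to Dhcr7, the last step. Sqle, a rate-limiting enzyme further down, was at 11.03, 17.7, 20.5 and 25.8 CPM at 8 PM and at 47.7, 127, 76.1 and 78.5 CPM at 12 AM (log2 2.13 ± 0.31, edgeR adjusted p = 6.7e-05). Cyp51, which demethylates lanosterol, went from 45.1, 42.6, 52.5 and 52.6 CPM to 92.9, 233, 181 and 154 CPM (log2 1.78 ± 0.23, edgeR adjusted p = 9.16e-06). Hmgcs1 went from 54.1, 47.3, 121 and 138 CPM to 233, 497, 360 and 346 CPM (log2 1.99 ± 0.38, edgeR adjusted p = 0.00114). The groups of all 3 genes were apart, and 12 AM library 2 was the highest in each. Insig1, the sterol-sensing retention factor of SREBP, rose by 2.10 ± 0.58. The adipocyte covariate left 12 genes higher, and 4 passed without 8 PM libraries 1 and 2 (median 1.2). Among 9 genes of the SREBP1 and LXR list, in contrast, 0 were higher and 1 was lower, Nr1h2, which encodes LXR beta (log2 -0.78, edgeR adjusted p = 0.019).

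SREBP proteins bind sterol elements, for which the letters TCACNCCAC were searched. They stood in 1 of 19 windows of the cholesterol list (5.26%), that of Hmgcs1, and in 1.24% of all windows. It is shown because Hmgcs1 opens the pathway whose genes rose. The window is chr13:119690101-119690400 on the plus strand, with the match in capitals 137 bases before the start.
Hmgcs1: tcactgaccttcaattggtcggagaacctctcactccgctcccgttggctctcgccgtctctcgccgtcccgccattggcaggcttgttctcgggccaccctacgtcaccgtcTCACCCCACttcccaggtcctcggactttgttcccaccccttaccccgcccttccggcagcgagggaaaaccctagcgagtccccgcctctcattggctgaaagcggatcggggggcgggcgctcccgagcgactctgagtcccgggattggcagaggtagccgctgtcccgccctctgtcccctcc

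**Figure D4:**
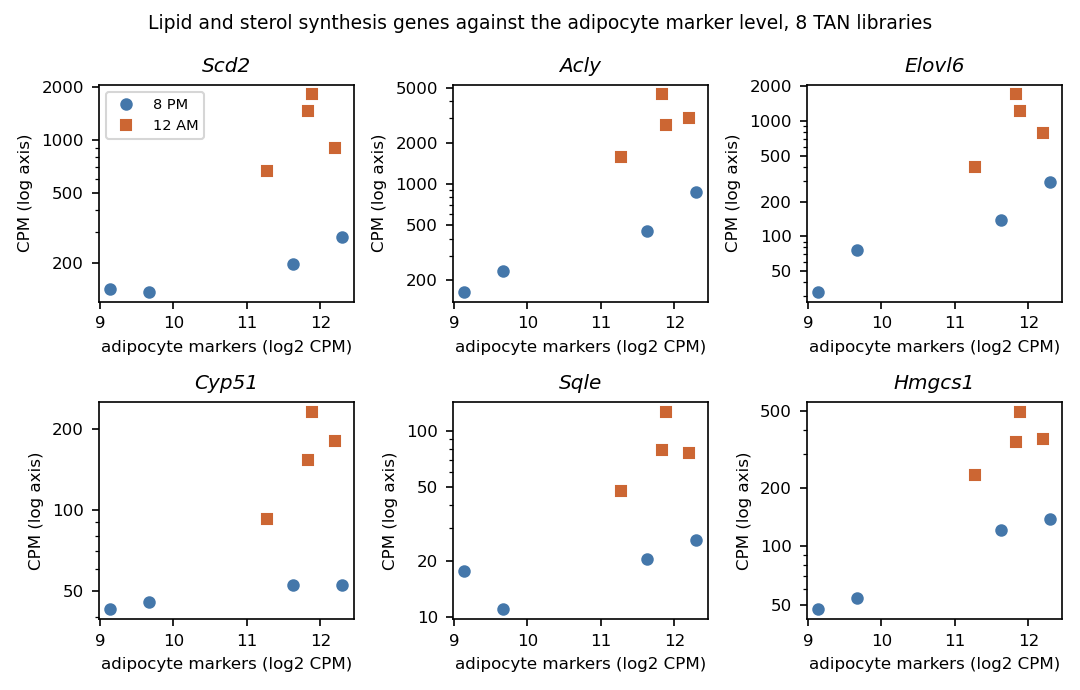
CPM (vertical axis, log scale) of fatty acid and cholesterol synthesis genes against the mean adipocyte marker level (horizontal axis, log2 CPM) in each of the 8 TAN libraries. Scd2, Acly, Elovl6, Sqle, Cyp51 and Hmgcs1 are higher in all 12 AM than in all 8 PM libraries, and 8 PM libraries 1 and 2 lie at the left, at 9.67 and 9.14.

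Some genes of sugar use rose, though most members of these lists did not pass. In the sugar response and ChREBP list 5 of 11 genes were higher and 0 lower (median log2 1.24, with 6.49% of all genes called higher), and they included Mlxipl, which encodes ChREBP (1.78), its partner Mlx (0.80) and its targets Thrsp (2.33) and Pnpla3 (1.72). Slc2a5, the fructose transporter GLUT5, went from 7.39, 3.01, 10.5 and 29.4 CPM to 41.1, 133, 84.3 and 125 CPM (log2 2.94 ± 0.75, edgeR adjusted p = 0.0143), with no overlap. In the pentose phosphate and NADPH list, which supplies reducing power for lipid synthesis, 5 of 10 were higher and 0 lower. Pgd among them went from 105, 99.7, 220 and 371 CPM to 421, 1074, 830 and 905 CPM (log2 2.02 ± 0.37, edgeR adjusted p = 0.000936). In glycolysis and pyruvate entry 10 of 27 were higher and 0 lower (median 0.71), among them Pfkl (1.19), Eno1 (1.08) and the pyruvate dehydrogenase genes Pdha1 (1.39), Pdhb (1.19) and Dlat (1.296). Glycogen genes gave 5 higher and 0 lower of 18, for both synthesis (Gys2, 1.62) and breakdown (Pygl, 1.97). Without 8 PM libraries 1 and 2, the count of higher genes was 0 for the sugar response and glycogen lists and 1 each for the pentose phosphate and glycolysis lists.

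In lists of lipid storage and of fat burning, a minority of genes passed. In triglyceride synthesis 3 of 12 were higher (Agpat2, Lpin1 and Gpd1), in fatty acid uptake 3 of 11 and in lipolysis and the lipid droplet 1 of 13, with 0 lower in each, and the last share is near the 6.49% of all genes called higher. That 1 was Plin2, a droplet coat protein, at 151, 102, 291 and 482 CPM and then at 600, 1344, 951 and 1116 CPM (log2 1.97 ± 0.35, edgeR adjusted p = 0.000638). Lpl, the lipase that takes fat from the blood, and Angptl4, its inhibitor, both rose, by 1.99 and 1.93. In fatty acid oxidation 8 of 21 were higher and 0 lower (median 0.86), with Pdk4, which diverts pyruvate from oxidation, at 1.91 ± 0.44 and Hadha, of the mitochondrial trifunctional protein, at 1.24 ± 0.27. The TCA cycle gave 6 higher and 1 lower (Got2, -1.16) of 21, and branched-chain amino acid catabolism 3 higher and 1 lower of 18. Without 8 PM libraries 1 and 2, which also makes the 8 PM group smaller, 0 members of the triglyceride, uptake, lipolysis, oxidation and TCA lists passed. The list medians were then 0.38, 0.33, -0.17, 0.23 and 0.14.

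Of 13 thermogenic genes, 2 were higher and 0 lower (median log2 1.14), with 6.49% of all genes called higher. Ppargc1a, the coactivator of mitochondrial biogenesis, went from 1.42, 2.25, 4.97 and 9.01 CPM to 7.63, 12.6, 10.03 and 26.9 CPM (log2 1.70 ± 0.49, edgeR adjusted p = 0.0262), where the lowest 12 AM value was below the highest of 8 PM. Ucp1, the uncoupling protein of brown and beige fat, was at 0 in all 8 PM libraries and at 0.383, 1.51, 0.469 and 0.415 CPM at 12 AM, at least 4.76-fold higher against the floor. It thus stayed at a low level in all 8 libraries. Of the 13, 0 passed by edgeR without 8 PM libraries 1 and 2. The count was also 0 with the lymphocyte and with the adipocyte marker level as a covariate.

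Immediate early genes went the other way. Of 26, 4 were lower (Junb, Klf2, Ier2 and Zfp36) and 1 higher (Fosl2), with a median log2 fold change of -0.87, against 0.07 in ad-lib mice and 4.08% of all genes called lower. Junb, a subunit of AP-1, was at 146, 195, 25.1 and 9.01 CPM at 8 PM and at 30.2, 8.47, 14.0 and 2.84 CPM at 12 AM (log2 -2.75 ± 0.82, edgeR adjusted p = 0.0296). Only 8 PM libraries 1 and 2 were above all 12 AM libraries. Klf2, a factor of endothelium and resting lymphocytes, likewise stood at 187, 193, 61.1 and 54.1 CPM and then at 65.7, 14.2, 35.5 and 18.9 CPM. These are the libraries with the highest lymphocyte marker level, and without them, as with the adipocyte covariate, 0 members were called lower. With the lymphocyte marker level as a covariate 2 members were still called lower. These were Klf2 (log2 -1.33, edgeR adjusted p = 0.00797) and Ier2 (log2 -1.07, edgeR adjusted p = 0.0246).

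Among the hormone lists, that of the insulin receptor and FoxO changed little. Of 26 insulin receptor and FoxO genes, 1 was higher, Deptor, an inhibitor of mTOR (log2 1.36), a smaller share than the 6.49% of all genes, and the median was 0.05. The FoxO letters GTAAACA were in 2 of 30 windows of this list (6.67%; 3.65% of all windows). Of 19 genes of the glucocorticoid list 4 were higher and 0 lower. The list is not of targets alone: the 4 include Nr3c1 (0.95), which encodes the receptor, and Hsd11b1 (1.40), whose enzyme regenerates the hormone. Lep, which encodes leptin, ran from 93.8 to 2260 CPM at 8 PM and from 987 to 1644 CPM at 12 AM, and its log2 change of 0.59 ± 0.62 did not pass (edgeR adjusted p = 0.543). Of 13 adipokines 2 were higher (Nampt and Apln), of 20 antioxidant genes 2 (Cat and Gclm), of 16 adipogenic factors 1 (Ebf1) and of 16 endothelial genes 5, with 0 lower in all 4 lists and 6.49% of all genes called higher. The shares of the antioxidant and adipogenic lists are near that of all genes. In these 4 lists and in the glucocorticoid list, 0 genes were higher by edgeR without 8 PM libraries 1 and 2, and 1 endothelial gene was with either marker covariate.

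Lists of remodelling and immunity held almost no calls. By edgeR, 0 of 17 collagen and matrix genes were called, with 6 above and 0 below at p under 0.05 before adjustment and 0 calls by DESeq2 and 3 by limma voom. For 21 autophagy genes the edgeR count was 0 (unadjusted 3 higher and 1 lower; DESeq2 0, limma voom 2). For 14 genes of type 2 immunity, which includes IL-33 and the markers of group 2 innate lymphoid cells, edgeR called 0 (unadjusted 1 higher and 3 lower; DESeq2 3, limma voom 1) at a median of -0.66. For 18 interferon genes edgeR called 0 (unadjusted 3 higher and 4 lower; DESeq2 3, limma voom 0). Of 16 proliferation genes 1 was lower, Mcm5, a helicase subunit of replication, and their median was -1.14, which became 0.02 with the adipocyte covariate. Immunoglobulin and T cell receptor segments, 297 of which were tested, gave 5 higher and 10 lower, smaller shares than the 6.49% and 4.08% of all genes.

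**Figure D5:**
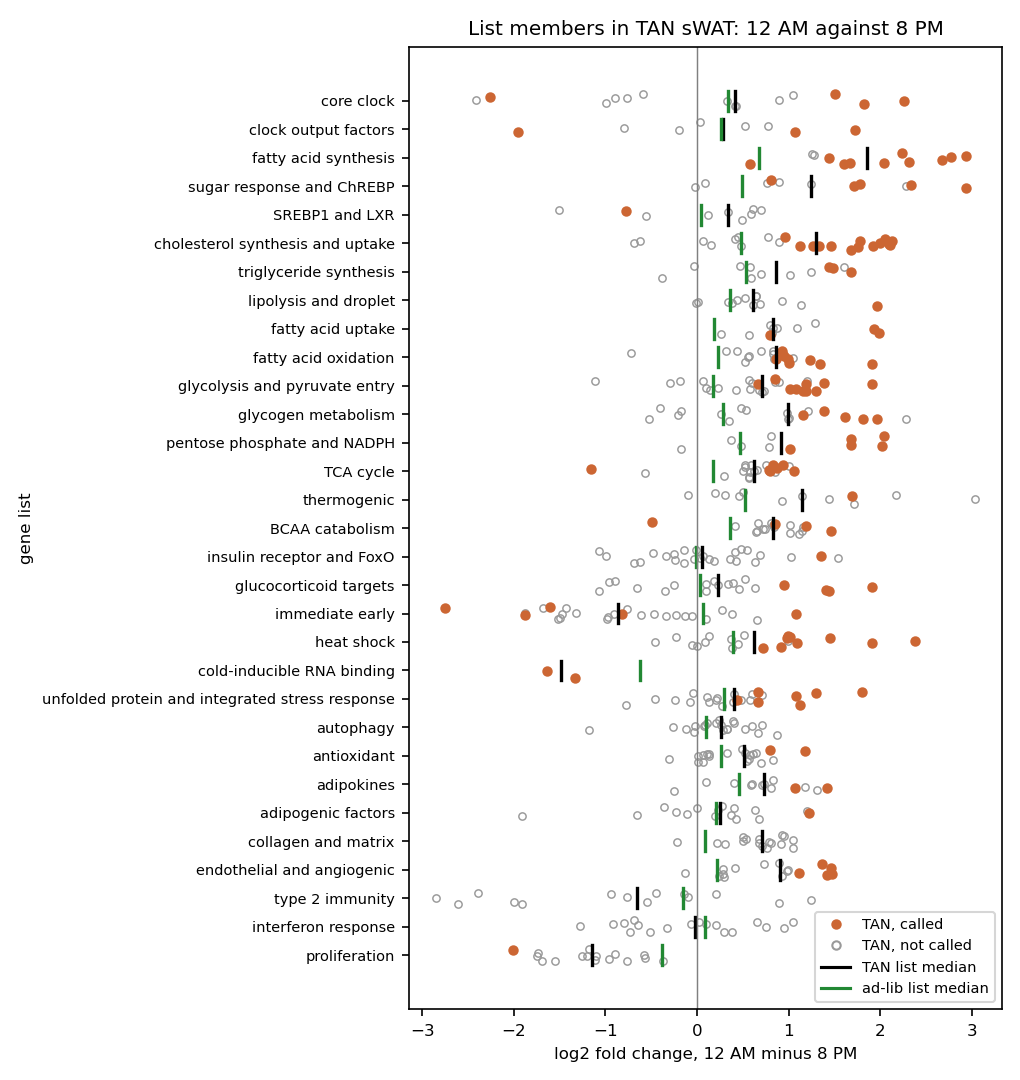
Log2 fold change from 8 PM to 12 AM (horizontal axis) of each tested gene, by list, in TAN mice, with called genes coloured, the TAN median in black and the ad-lib median in green. Genes at the floor, such as Npas2 and Ucp1, are left out. Medians run from -1.49 for the cold-inducible pair to 1.86 for fatty acid synthesis.

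The protein-coding genes with the largest changes were next ranked among those called, without overlap between the groups and with at least 1 CPM in every library of the higher group. The 10 that rose most under these conditions were Mettl21c, Ugt1a6a, Hephl1, Adcy10, Lonrf3, B3galt1, Asb12, Cep290, Itih4 and Ptger3, and 9 of them, all but Ptger3, were at 0 in 8 PM libraries 1 and 2. Without these libraries 0 of the 10 were still called by edgeR. Ptger3, a receptor for prostaglandin E2 that lowers cyclic AMP in adipocytes, went from 3.39, 3.13, 38.2 and 70.8 CPM to 137, 302, 289 and 251 CPM (log2 3.08 ± 0.67, edgeR adjusted p = 0.0047). Hephl1, a copper-dependent ferroxidase, was at 0, 0, 0.994 and 4.06 CPM and then at 9.67, 47.8, 22.0 and 39.7 CPM. Mettl21c, a methyltransferase known from muscle, was at 1.07 to 3.18 CPM at 12 AM and at least 11.3-fold higher against the floor. Ugt1a6a shares exons with its family, which makes its counts uncertain.

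The 10 that fell most under the same conditions, which leave out genes with overlapping groups such as Junb, were Sphk1, Haus5, Trnp1, D130040H23Rik, Riox1, Prdm11, Nr1d1, Fbxo17, Zfyve28 and Tnfrsf14. Sphk1, which makes sphingosine-1-phosphate, went from 4.10, 7.14, 2.70 and 1.92 CPM to 0.426, 0.126, 0.176 and 0 CPM (log2 -4.34 ± 0.82, edgeR adjusted p = 0.00122). Riox1, a histone and ribosomal protein hydroxylase, went from 34.1, 25.7, 11.4 and 6.31 CPM to 5.41, 2.38, 4.40 and 2.91 CPM, highest in the libraries richest in lymphocyte RNA. Of these 10, Sphk1 and Nr1d1 were still called without 8 PM libraries 1 and 2.

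The same step in ad-lib mice gave 0 called genes by edgeR (0% of 19977), with 234 above and 142 below at p under 0.05 before adjustment, and no other tool was run on it alone. That count does not show that TAN mice changed more, and the difference of the steps was tested directly: TAN minus ad-lib passed for 10 genes (0.0501%), with 1295 above and 892 below before adjustment. The clock, chaperone and lipid genes described above were not among them. Nr1d1 changed by -2.27 in both diets, a difference of 0.00. For Arntl the ad-lib change was 0.72 ± 0.36 and the difference 1.54 (edgeR adjusted p = 0.336), for Scd2 0.67 ± 0.36 and 2.004 (edgeR adjusted p = 0.196), for Sqle 0.44 ± 0.30 and 1.69 (edgeR adjusted p = 0.195) and for Hspa4l 0.80 ± 0.29 and 1.58 (edgeR adjusted p = 0.209). For Hspa8 it was 0.12 (edgeR adjusted p = 0.949). Each of these missed the threshold, which does not show that the diets acted alike.

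Among the 10 genes whose step differed between the diets, Sertad1, which encodes a regulator of CDK4 and of E2F transcription, was the one of sizeable level in all 8 libraries. It was at 60.1, 43.7, 35.2 and 34.9 CPM at 8 PM and at 11.9, 17.8, 12.1 and 8.72 CPM at 12 AM, with no overlap (log2 -1.78 ± 0.25, edgeR adjusted p = 4.53e-05). In ad-lib mice it changed by -0.03 ± 0.25, and the difference was -1.75 (edgeR adjusted p = 0.0345). Mean Sertad1 in TAN mice was 43.5 ± 11.8 CPM (SD) at 8 PM and 12.6 to 17.4 CPM at the other 5 times, against 16.4 to 28.8 CPM in ad-lib mice. The others were Gm3086, Gm43682, Gm25082, Far1os, Pcdhgb7, Gm44164, Vsnl1, F730311O21Rik and Ugt1a6a, and 7 of these 9 had no more than 3 counts in any library of 1 of the TAN groups. Vsnl1, a neuronal calcium sensor, was at 0 in all 8 PM libraries and at 0.0426, 0.188, 1.47 and 0.623 CPM at 12 AM. None of the 10 passed without 8 PM libraries 1 and 2.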

How the data were processed

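RNA of sWAT was sequenced after poly-A selection and random-hexamer priming, and the authors deposited a table of raw counts per gene for 48 libraries, without normalization. The submitters' processing notes name TopHat 1.3.3, DESeq2 1.20.0, limma and edgeR with no role, and the builds mm9, mm10 and GRCm38. The counting tool and whether libraries were stranded are not given in the sources used here, so reads of antisense partners may be mixed. A second deposited table of FPKM, already averaged within groups, was not used. No pair of libraries was identical. The labels do not say whether libraries came from separate mice at each time, so p-values measure the spread between libraries. The main fit estimated that spread over all 48 of them.

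The test on counts used edgeR (version 4.0.16, under R 4.3.3). The filterByExpr step with a minimum count of 10 retained 19977 of 54532 genes, TMM scaled the libraries, and all 48 of them, in 12 groups that shared the estimated spread, entered a robust quasi-likelihood fit. Genes counted as called had a Benjamini-Hochberg adjusted p under 0.05. The SE of a log2 change is its absolute value divided by the square root of the F statistic of this fit. CPM are TMM-scaled, log2 CPM use a prior count of 2, and a gene with at most 3 counts in every library of a group gets a bound in place of a fitted change. Floors cover counting error only. Total counts ran from 15636378 to 29913310 over the series. Marker levels were compared by exact permutation over the 70 splits of 4 and 4, whose smallest two-sided p is 0.0286. DESeq2 1.42.0 and limma 3.58.1 (voom), other filters, scalings, sample sets, covariates and a replicate block were alternatives. The steps were also run on simulated counts. These held no differences in tissue makeup and no missing genes, so that run does not cover such features of the 8 libraries.

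Genes named are the 10 protein-coding genes of largest change in each direction with at least 1 CPM throughout the higher group and no overlap, every clock gene, up to 4 called members of each list by p, and the 3 genes of smallest p for the difference between diets. Fasn, Scd1, Lep, Hspa8 and other list members given with values were named after their values were seen. The members and lists were chosen with earlier results of these data known. The letters TAGGTCA, GAANNTTC and TCACNCCAC were added to the promoter search afterwards. A few members have no promoter window in the RefSeq table. Some list members are counted but not reported here by name.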

Additional observations from a re-analysis of the deposited data

Results flagged for a closer look

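In 16 of 255 groups of 4 libraries, 1 library lay far from the other 3, by Dixon's test at the 95% level, which chance gives in about 1 in 20 groups. All values here are log2 CPM. At 8 PM the high library was 3 for Mettl21c (-2.81) and 4 for Ugt1a6a (-1.21), B3galt1 (-0.603), Cep290 (0.533), Gm43682 (-1.92) and Gm25082 (-1.21), each against 3 libraries at 0 counts. With 3 libraries tied at 0, any count in the remaining library is flagged, so the rate of 1 in 20 does not apply to these. At 12 AM library 2 was high for Mlx (7.04), Ucp1 (0.679) and Hspa5 (10.1) and low for Fbxo17 (-0.599), library 4 was high for Mettl21c (1.71), Ebf1 (7.21) and Gm25082 (1.89) and low for Rbm3 (7.28), and library 1 was low for Atg14 (3.60) and Lox (6.01).

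For 10 genes the step from 8 PM to 12 AM differed between TAN and ad-lib mice by edgeR's quasi-likelihood test of the difference. The TAN minus ad-lib difference in log2 fold change was -1.75 for Sertad1, 5.40 for Gm25082 and 5.31 for Ugt1a6a. For genes at the floor in a TAN group the TAN change is a bound: Gm3086 was at least 9.15-fold, Gm43682 6.99-fold, Far1os 10.8-fold, Pcdhgb7 7.85-fold, Gm44164 4.48-fold and Vsnl1 3.98-fold higher at 12 AM, and F730311O21Rik was at least 6.48-fold lower. Far1os lies antisense to Far1, and Pcdhgb7 and Ugt1a6a share exons with their families, so their counts are uncertain.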

How the results depend on the processing

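Counts of called genes moved with most settings. Of all 2113 called genes, 2031 kept their direction without 8 PM libraries 1 and 2, and 1954 did in the lymphocyte-poor libraries. Among the named genes 100 were called, most of them picked by size of change or p in the same libraries, which favours a kept direction. Of these 100, 0 changed direction in any alternative run, and 42 kept their call in each fit that left out 1 of the 8 libraries. All 100 lost their call in at least 1 alternative: 20 were still called without 8 PM libraries 1 and 2, 1 (Arntl) in the lymphocyte-poor libraries and 0 by edgeR in the 8 libraries alone. Against 1297 higher, 816 lower and 10 genes that differed between the diets, a fold change above 2 left 829 higher. Without a filter the counts were 780, 396 and 5. At least 10 counts in all 8 libraries gave 1243 lower and 0 that differed, DESeq2 gave 1619 and 95, and limma voom gave 2239 higher. The 24 TAN libraries alone gave 789 higher, and the 8 libraries alone 0 and 0 by edgeR, with the spread then estimated from these 8 samples. The lymphocyte marker level as a covariate gave 827, 252 and 17. Chosen after seeing the data, the adipocyte marker level gave 163 lower and 25 that differed, leaving out 8 PM libraries 1 and 2 gave 94, 31 and 0, and the 3 libraries poor in lymphocyte RNA gave 2, 1 and 1, where the lone 8 PM library is assumed to vary like the other groups. DESeq2 size factors (RLE), leaving out mitochondrial genes and the muscle level kept all 3 counts within 1.5 times. Limma voom shifted the median of all genes to 0.21 and the adipocyte covariate to 0.14. Beyond sample numbers and the genes tested, the cause was not tested.

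Leaving out 1 library moved the higher count between 337 and 3465, the lower count between 95 and 2066 and the count that differed between diets between 0 and 395. For higher and lower genes it was 358 and 121 without 8 PM library 1, 337 and 95 without 2, 1219 and 1050 without 3, 3465 and 2066 without 4, and without 12 AM library 1 2092 and 2022, without 2 482 and 185, without 3 839 and 409, and without 4 386 and 107. The lymphocyte marker difference stayed between -4.15 and -1.71.

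The muscle marker difference, of no clear sign, was 0.060 with a prior count of 0.5 and ran from -1.51 to 0.89 when 1 library was left out, with 0.25, 0.54 and 0.61 among its values. Clock genes that did not pass turned sign in some settings. Hlf stood at -0.047 with at least 10 counts, -0.092 and -0.25 with the lymphocyte and adipocyte covariates, -0.74 without 8 PM libraries 1 and 2, -0.88 in the lymphocyte-poor libraries and -0.29 to 0.68 with 1 library left out, values of -0.25, -0.00017 and -0.076 included. Per3 was at -0.033 and -0.097 in the same 2 subsets, Klf9 at -0.27 and -0.49, and Usp2 at -0.26 in the second. With 1 library left out Per2 ran from -0.44 to 0.58 and Per3 from -0.12 to 0.88, both lowest without 12 AM library 4, and Tef from -0.46 to 0.35, highest without 8 PM library 4. With limma voom Tef was at 0.096.

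Groups share replicate numbers, but same-numbered libraries did not deviate together in each pair (correlations of 0.38, -0.31, 0.13 and 0.40 over genes), so the numbers were not taken as pairs. A fit with the replicate number as a block gave 1207 higher, 616 lower and 9 that differed. Depth limits genes under about 3 counts a library, for which only bounds are given.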
